A study of Mus musculus with 5 samples.

Results

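Genes of the respiratory chain and of the tricarboxylic acid (TCA) cycle were examined in the CD11A- and CD11A+ subfractions of mouse hematopoietic stem cells (HSCs). The genes were taken by symbol from a list of 43 nuclear genes: 18 of complex I, 4 of complex II, 6 of complex III with cytochrome c, 5 of complex IV and 10 of the TCA cycle. Of these, 42 were measured, out of 18193 genes on the array, and Cox7b was not analysed here. CD11A is the alpha chain of the integrin LFA-1, and both subfractions were sorted and then resorted from KIT-enriched bone marrow of male C57/Bl6 mice, by the absence of lineage markers, FLK2 and CD34 and the presence of KIT, SCA-1 and CD150. For the arrayed cells the supplement adds CD27 and EPCR, the product of Procr, to the markers required. RNA from 1 to 2 mice per sort was amplified in 2 cycles and hybridised to Affymetrix expression arrays, 3 for the CD11A- and 2 for the CD11A+ subfraction. CD11A- replicate 2 (1300 cells) and CD11A+ replicate 1 (1274 cells) were sorted on the same day from mice of 8 to 12 weeks (day A), and CD11A- replicate 3 (1803 cells) and CD11A+ replicate 2 (2293 cells) on another day from mice of 10 weeks (day B). CD11A- replicate 1 (1011 cells) was sorted alone from mice of 6 weeks (day C).

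The TCA cycle oxidises acetyl groups in the mitochondrial matrix and loads electrons onto NADH and FADH2. Complexes I and II pass these electrons to ubiquinone, complex III passes them to cytochrome c and complex IV to oxygen, while complexes I, III and IV pump the protons that drive ATP synthase. Quiescent HSCs of adult marrow are known for low respiration and a reliance on glycolysis, and the respiratory chain is known to be engaged as they divide and differentiate. The comparison of the subfractions therefore asks whether the transcripts of this machinery differ between 2 kinds of cell that share the HSC gate. Values are log2 expression values, each gene is given by its brightest probeset, and differences are CD11A+ minus CD11A- on that scale.

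Nuclear respiratory genes are known as targets of the factors NRF1 and GABP, so the bases before 3 start sites are shown: Idh2, with the largest mean difference of the 42 genes, Ndufa9, with the largest positive difference in complex I, and Sdhd, with the largest difference on day A. The sequences are the 250 bases before each start in RefSeq on GRCm38.p6, written 5′ to 3′ on the strand of the gene. Capitals mark TGCGCA (the NRF1 core, which reads the same on both strands) and CGGAAG or its reverse complement CTTCCG (the GABP/ETS core).
Idh2, chr7:80115351-80115600, minus strand: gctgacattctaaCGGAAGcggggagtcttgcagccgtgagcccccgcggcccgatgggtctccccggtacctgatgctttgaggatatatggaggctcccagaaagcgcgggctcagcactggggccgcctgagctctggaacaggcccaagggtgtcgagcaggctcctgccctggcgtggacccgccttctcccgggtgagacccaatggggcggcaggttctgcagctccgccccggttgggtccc
Ndufa9, chr6:126849145-126849394, minus strand: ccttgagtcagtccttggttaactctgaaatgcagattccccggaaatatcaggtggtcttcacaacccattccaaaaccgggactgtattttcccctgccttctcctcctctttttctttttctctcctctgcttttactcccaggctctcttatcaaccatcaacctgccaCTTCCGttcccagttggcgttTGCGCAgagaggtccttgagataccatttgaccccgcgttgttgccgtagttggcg
Sdhd, chr9:50603850-50604099, minus strand: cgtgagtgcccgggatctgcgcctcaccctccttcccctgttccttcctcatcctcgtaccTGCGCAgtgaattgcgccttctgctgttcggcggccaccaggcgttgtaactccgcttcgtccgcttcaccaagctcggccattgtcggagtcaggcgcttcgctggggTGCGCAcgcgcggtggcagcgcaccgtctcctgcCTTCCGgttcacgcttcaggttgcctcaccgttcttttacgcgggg
The Idh2 window held 1 GABP/ETS core and 0 NRF1 cores, the Ndufa9 window 1 of each, and the Sdhd window 2 NRF1 cores and 1 GABP/ETS core. RefSeq promoters matched 32 of the 42 genes and 14452 genes of the array. TGCGCA was found for 6 of the 32 (18.8%) and for 10.7% of the 14452, and CGGAAG on either strand for 10 (31.2%) and 22.3%. The letters AAGATGG (YY1) were found on either strand for 1 of the 32 (3.12%) against 5%, and AAGGTCA (ERR) for 0 against 4.17%. CGGAAG can share the letters AAG with both of these. The median GC content was 59.2% for the 32 genes and 57.6% for all. A match of letters is a description of the window and no measure of binding.

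Transcripts of Kit and of a list of HSC markers were read on every array. Kit, the receptor used in the sort, had log2 values from 10.95 to 11.92. The mean over 7 measured HSC markers was 11.26, 11.01 and 11.49 in CD11A- replicates 1 to 3 and 10.35 and 11.19 in CD11A+ replicates 1 and 2. The 7 were Kit, Slamf1, Procr, Tek, Mecom, Hlf and Meis1, of which Tek, Mecom, Hlf and Meis1 were not used in the sort. Ly6a (SCA-1) was not analysed here, and the mean does not show each transcript of the gate. Transcripts of mature granulocytes varied widely between arrays. Their mean over 11 of 14 listed genes was 4.87, 7.39 and 4.80 in CD11A- and 8.54 and 5.53 in CD11A+ replicates, and that of 9 macrophage genes was 5.22, 6.31, 5.33, 7.19 and 6.49 in the same order. The means ranged from 5.78 to 6.23 for 7 erythroid genes and from 5.41 to 5.77 for 7 lymphoid genes. Replicates of a subfraction came from separate sort days and mice, and the labels do not say whether the 2 subfractions of a day shared mice. In bulk RNA, fewer cells of a type and less RNA per cell cannot be told apart.

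Between the subfractions the genes of the respiratory chain and TCA cycle split almost evenly, and most differences were small. Of 42 genes, 22 (52.4%) had a higher mean in CD11A+ HSCs, against 48.3% of all genes, and 20 had a lower mean. The median difference was 0.02, against -0.01 over all genes, and single genes ranged from -0.41 (Ndufs7) to 0.63 (Idh2). For 33 of 42 genes (78.6%) the range of the 3 CD11A- arrays alone was larger than the difference between the subfractions, against 78.5% of all genes.

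No gene of the group passed the test. Adjusted p from limma was 1.00 for every one of the 42 genes, and 0 of 45037 probesets (0%) passed an adjusted p of 0.05. At an unadjusted p under 0.05, 1 of the 42 was higher in CD11A+ HSCs (Idh2), against 1.48% of all genes, and 0 were lower, against 3.58%. The count of higher genes was 0 with sort day as a fixed block and 3 with it as a random block, so the call on Idh2 was lost in the former. The standard error of a difference was 0.17 to 0.65, with a median of 0.26. Both CD11A+ arrays lay above all 3 CD11A- arrays for 5 genes (11.9%), against 8.56% of all genes, and below them for 1 gene (2.38%), against 10.4%. The share above was near that of all genes, and the gene below was Ndufs1. Without CD11A+ replicate 1 the median difference was -0.40 and 23 genes (54.8%) lay below, against 31.6% of all genes. Without CD11A+ replicate 2 it was 0.39 and 29 genes (69%) lay above, against 31.1% of all genes.

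**Figure D1:**
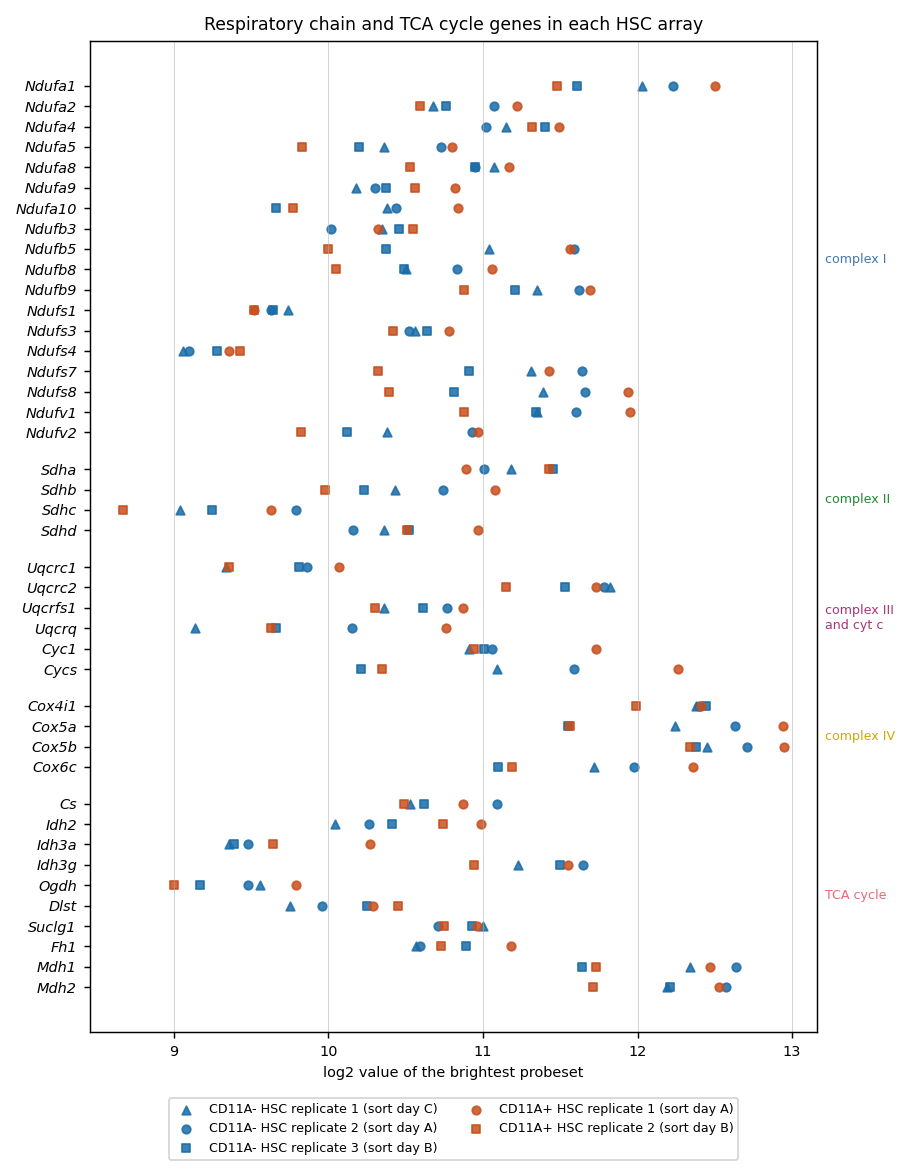
Log2 value of the brightest probeset (x axis) of each of the 42 genes (y axis, grouped by complex) on each of the 5 arrays, with blue for CD11A-, orange for CD11A+ HSCs and the symbol shape for the sort day. CD11A+ replicate 1 (orange circles) was the highest array for 27 genes (64.3%, against 28.3% of all genes) and CD11A+ replicate 2 (orange squares) the lowest for 23 (54.8%, against 26.5%), so that the 2 arrays of one subfraction often lay on opposite sides of the CD11A- arrays.

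Complex I takes electrons from NADH, and of its 18 measured genes 8 had differences above 0 and 10 below, with a median of -0.03. Ndufa9, an accessory subunit at the junction of the arms of the complex, had log2 values of 10.18, 10.30 and 10.37 in CD11A- replicates 1 to 3 and of 10.82 and 10.56 in CD11A+ replicates 1 and 2. The groups did not overlap, CD11A+ being the higher, and the mean difference was 0.41 with a standard error of 0.18 (p = 0.1 in a two-sided exact permutation test, the minimum for 3 against 2 arrays). Ndufs4, an accessory subunit of the NADH-oxidising arm, had 9.06, 9.10 and 9.28 against 9.36 and 9.43. The groups did not overlap here either, with a difference of 0.25 ± 0.18 (standard error) and p = 0.2 in the same permutation test. However, the 3 dimmer Ndufs4 probesets had differences of -0.03, -0.08 and 0.56.

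Ndufs1, the largest core subunit with several iron-sulfur clusters, was the gene with both CD11A+ arrays below. Its values were 9.74, 9.63 and 9.64 in CD11A- and 9.52 and 9.52 in CD11A+ HSCs, a difference of -0.15 that was smaller than its standard error of 0.17. Ndufs7, the core subunit that hands electrons on to ubiquinone, had the lowest difference of the whole group. It had values of 11.31, 11.64 and 10.91 in CD11A- and 11.43 and 10.32 in CD11A+ HSCs. The groups overlapped, the difference was -0.41 ± 0.39 (standard error), and it was 0.14 without CD11A+ replicate 2. The other 14 complex I genes had differences between -0.22 (Ndufb5) and 0.21 (Ndufa4, now also counted with complex IV), with overlapping groups for each.

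Complex II, which is also succinate dehydrogenase of the TCA cycle, was split 2 and 2 with a median of 0.00. Sdhd, a membrane anchor of the complex, had values of 10.36, 10.16 and 10.52 in CD11A- and 10.97 and 10.51 in CD11A+ HSCs. CD11A+ replicate 1 alone stood above the CD11A- arrays, and the difference of 0.39 ± 0.23 (standard error) was 0.16 without it and 0.62 without CD11A+ replicate 2. Sdhc, the other anchor, had 9.04, 9.79 and 9.25 against 9.63 and 8.67. Here CD11A+ replicate 2 was the lowest array, and the difference of -0.21 ± 0.37 (standard error) was 0.27 without it and 0.01 without CD11A- replicate 2. A dimmer Sdhc probeset had a difference of 0.17. The catalytic subunits Sdha and Sdhb had -0.05 and 0.06.

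In complex III with cytochrome c, 5 of 6 genes had a higher mean in CD11A+ HSCs, with a median of 0.19. Uqcrq, a small accessory subunit, had values of 9.14, 10.15 and 9.66 in CD11A- and 10.76 and 9.63 in CD11A+ HSCs. Cyc1, the cytochrome c1 subunit, had 10.91, 11.06 and 11.01 against 11.73 and 10.94. For both genes CD11A+ replicate 1 was the highest array while replicate 2 lay among the CD11A- arrays, and the differences were 0.55 ± 0.43 and 0.34 ± 0.27 (standard errors). Without CD11A+ replicate 1 they were -0.02 and -0.05. The dimmer Uqcrq probesets had differences of 0.94, 0.06 and -0.36. Cycs, cytochrome c itself, had the largest standard error of the group (0.65) beside a difference of 0.34, which was -0.61 without CD11A+ replicate 1. Uqcrc2, a core subunit, had -0.27, Uqcrc1 had 0.04 and the iron-sulfur subunit gene Uqcrfs1 had 0.01.

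Complex IV reduces oxygen, and 3 of its 4 measured genes had a higher mean in CD11A+ HSCs, with a median of 0.12. Cox4i1, the common form of subunit 4, had values of 12.38, 12.40 and 12.44 in CD11A- and 12.41 and 11.99 in CD11A+ HSCs. CD11A+ replicate 2 alone stood apart, and the difference of -0.21 ± 0.20 (standard error) was 0.00 without it. Cox6c, a small accessory subunit, had 11.72, 11.98 and 11.10 against 12.36 and 11.19. Its groups overlapped, with a difference of 0.18 ± 0.43 (standard error) that was -0.41 without CD11A+ replicate 1 and -0.08 without CD11A- replicate 3. Cox5a and Cox5b had differences of 0.11 and 0.13.

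The TCA cycle held 3 of the 5 genes with both CD11A+ arrays above, although only 4 of its 10 genes had a higher mean and its median was -0.02. Idh2, the mitochondrial NADP-dependent isocitrate dehydrogenase, had values of 10.04, 10.26 and 10.41 in CD11A- and 10.99 and 10.74 in CD11A+ HSCs. The lower CD11A+ array lay above the highest CD11A- array, and the difference was 0.63 ± 0.20 (standard error), a ratio of 1.55 (p = 0.1 in a two-sided exact permutation test, again the minimum). Its unadjusted limma p was 0.021 and its adjusted p was 1.00. A dimmer Idh2 probeset had a difference of -0.19.

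Idh3a encodes the catalytic subunit of the NAD-dependent isocitrate dehydrogenase. It had 9.36, 9.48 and 9.39 in CD11A- and 10.27 and 9.64 in CD11A+ HSCs. The CD11A+ arrays were both above, and the difference of 0.55 ± 0.24 (standard error) was 0.23 without CD11A+ replicate 1, the higher of the pair. The genes of the other subunits of this enzyme lay the other way: Idh3g, one of the 42, had a difference of -0.22, and Idh3b, from the wider pathway, had values of 11.47, 11.38 and 11.52 against 11.13 and 11.06, with both CD11A+ arrays below and a difference of -0.36 ± 0.17 (standard error). Idh3b did not pass the test either (limma adjusted p = 1.00).

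Dlst, the succinyltransferase of the 2-oxoglutarate dehydrogenase complex, was the last of the 3. It had values of 9.75, 9.96 and 10.25 in CD11A- and 10.29 and 10.45 in CD11A+ HSCs, separated by a gap of 0.04 between the nearest arrays. The difference was 0.38 ± 0.22 (standard error), with p = 0.2 in the two-sided exact permutation test. The 3 dimmer Dlst probesets had differences of -0.34, -0.22 and 0.21. Ogdh, the first enzyme of the same complex, had -0.01. The other genes of the cycle had 0.27 (Fh1, fumarase), -0.03 (Suclg1, succinyl-CoA ligase), -0.07 (Cs, citrate synthase), -0.11 (Mdh1) and -0.20 (Mdh2), the last 2 being malate dehydrogenases of the cytosol and the matrix.

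**Figure D2:**
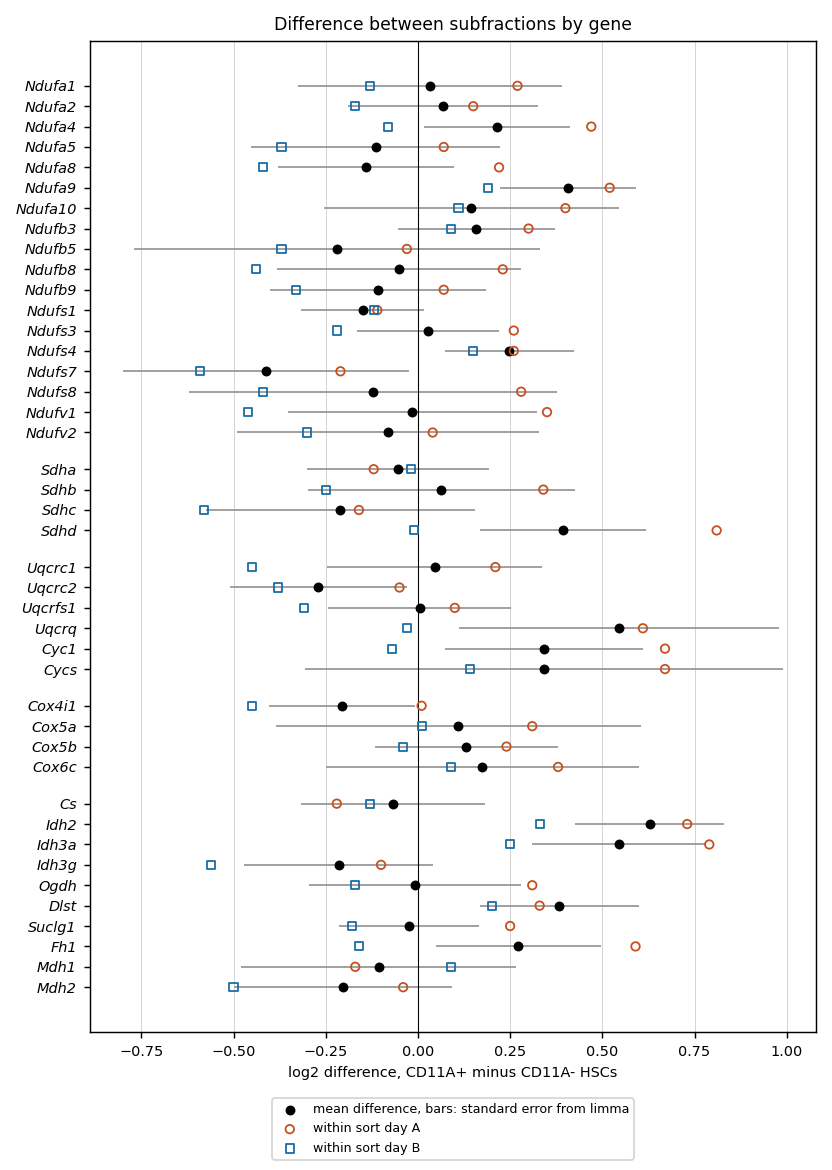
Log2 difference, CD11A+ minus CD11A- HSCs (x axis), of the 42 genes (y axis): black points are mean differences with limma's standard error as bars, orange circles the difference on day A and blue squares that on day B. Most bars crossed 0, and the circles lay above 0 for 32 genes while the squares lay below 0 for 31.

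On each of the 2 sort days that hold both subfractions, the median of the group lay away from 0, and on opposite sides of it. On day A, 32 of the 42 genes (76.2%) were higher in the CD11A+ array, against 51.1% of all genes. The median difference of that day was 0.26 (0.02 over all genes). On day B, 31 (73.8%) were lower in the CD11A+ array, against 53.6% of all genes, and the median was -0.17 (-0.03 over all genes). Each day holds 1 array per subfraction, so the values have no replicate check and the difference between the days was not tested.

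By gene, 22 of 42 (52.4%) had a difference above 0 on day A and below 0 on day B, against 25% of all genes. They were Ndufa1, Ndufa2, Ndufa4, Ndufa5, Ndufa8, Ndufb8, Ndufb9, Ndufs3, Ndufs8, Ndufv1 and Ndufv2 of complex I, Sdhb and Sdhd of complex II, Uqcrc1, Uqcrfs1, Uqcrq and Cyc1 of complex III, Cox4i1 and Cox5b of complex IV, and Ogdh, Suclg1 and Fh1 of the TCA cycle. Another 10 (23.8%) were higher in CD11A+ HSCs on both days, against 25.3% of all genes, namely Ndufa9, Ndufa10, Ndufb3, Ndufs4, Cycs, Cox5a, Cox6c, Idh2, Idh3a and Dlst. Lower on both days were 9 (21.4%), against 28% of all genes: Ndufb5, Ndufs1, Ndufs7, Sdha, Sdhc, Uqcrc2, Cs, Idh3g and Mdh2. Mdh1 was lower on day A and higher on day B.

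The medians had opposite signs on the 2 days in every role. Complex I had medians of 0.24 on day A and -0.26 on day B, with 15 of 18 genes above 0 on the first and 14 below 0 on the other. The medians were 0.41 and -0.19 for complex III with cytochrome c, 0.11 and -0.14 for complex II, 0.28 and -0.02 for complex IV and 0.28 and -0.14 for the TCA cycle. Genes were split 2 and 2 in complex II on day A and in complex IV on day B. In the TCA cycle only 3 of 10 genes (30%, against 25% of all genes) were above 0 on day A and below 0 on day B. The largest values on day A were those of Sdhd (0.81), Idh3a (0.79) and Idh2 (0.73). The lowest value on day B was that of Ndufs7 (-0.59), and Idh2 (0.33) and Idh3a (0.25) had the highest values of that day.

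**Figure D3:**
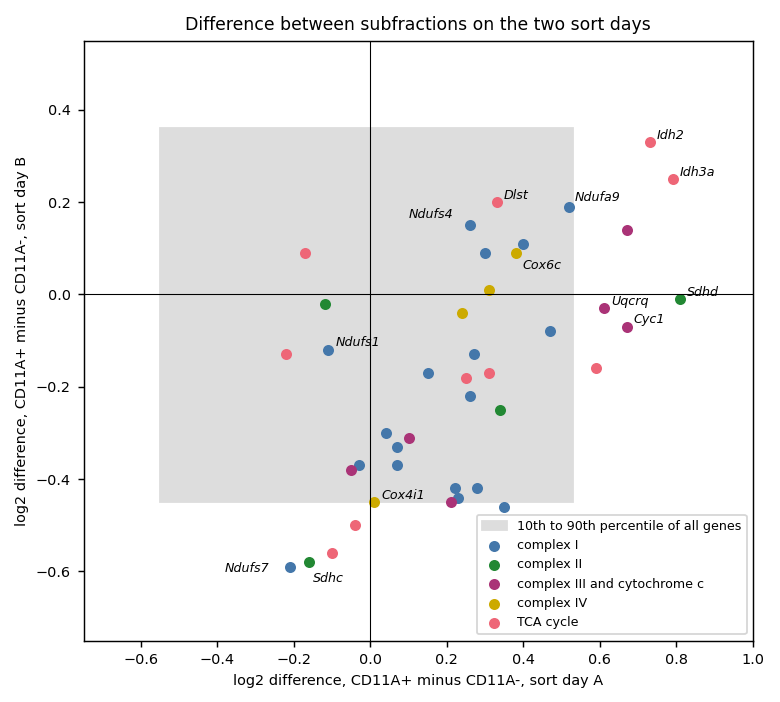
Log2 difference, CD11A+ minus CD11A- HSCs, on day A (x axis) and day B (y axis) for the 42 genes, coloured by role, with 1 array per subfraction and day and the grey box giving the range from the 10th to the 90th percentile of all genes on each axis. In the lower right quadrant lie 22 genes, and Idh2 (0.73 and 0.33) lies at the upper right.

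The same 4 arrays showed a gap between the sort days within each subfraction. Of the 42 genes, 28 (66.7%) were higher on day A than on day B in both subfractions, against 36% of all genes, and 4 (Ndufb3, Ndufs4, Sdha and Dlst) were lower in both. The median of day A minus day B was 0.29 in CD11A- and 0.68 in CD11A+ HSCs, against 0.03 and 0.05 over all genes. Cycs, with the largest gap of the group, had values of 11.59 and 12.26 on day A (CD11A- and CD11A+), 10.21 and 10.35 on day B and 11.09 on day C. Its gaps between the days, 1.38 and 1.91, exceeded its differences between the subfractions on either day (0.67 and 0.14). Other large gaps were those of Ndufb5 (1.22 and 1.56), Cox5a (1.08 and 1.38) and Ndufs8 (0.85 and 1.55).

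Some other measures of the arrays varied in part along with these values. The mean over the 42 genes was highest in CD11A+ replicate 1 (11.21), followed by CD11A- replicates 2 (10.97), 1 (10.76) and 3 (10.69) and CD11A+ replicate 2 (10.52). The difference between the 3′ and 5′ Gapdh control probesets, which is larger where less of the transcript was copied, was 1.91, 2.22, 2.70, 2.80 and 2.76 for the same arrays. That of the actin probesets, at 1.94, 2.43, 2.51, 1.97 and 2.09, did not follow their order. The mean over 19 mitosis genes was 9.37, 7.31, 6.73, 5.55 and 6.27, and the granulocyte means given above were likewise highest in the 2 arrays of day A. Within day B, the mean over the 42 genes was lower in CD11A+ than in CD11A- HSCs (10.52 against 10.69). The mitosis (6.27 against 5.55), granulocyte (5.53 against 4.80) and macrophage means (6.49 against 5.33) were higher in CD11A+ HSCs on that day. Of the measured markers, 8 of 11 granulocyte, 7 of 9 macrophage and 19 of 19 mitosis genes were higher on day A than on day B in both subfractions. HSC markers lay the other way, with 5 of 7 lower on day A in both subfractions. Of these 7, all were lower in CD11A+ than in CD11A- HSCs on day A (median -0.51). On day B 4 were lower and 3 higher (median -0.02). Between the subfractions, 8 of 11 granulocyte, 8 of 9 macrophage and 17 of 19 mitosis genes were higher in CD11A+ HSCs on both days. That share was 25.3% over all genes. Lower on both days were 0 granulocyte, 1 macrophage and 0 mitosis genes. The part of RNA quality, granulocyte, macrophage and HSC transcripts and dividing cells in the values of the respiratory genes was not tested, and sort day, cell number and mouse age cannot be told apart.

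Genes of the same pathway outside the 42 were read in the same way, and none passed the test. Of 26 other respiratory chain subunits, 9 had a difference above 0 and 17 below, with a median of -0.05. Their medians were 0.10 on day A and -0.22 on day B, and 24 (92.3%, against 36% of all genes) were higher on day A than on day B in both subfractions. Ndufa7 of complex I had the lowest mean difference (-0.53) and Ndufc1 of the same complex the highest (0.22). Of 15 ATP synthase genes, 12 had a higher mean, with a median of 0.11 and medians of 0.15 and -0.06 on days A and B. Atpif1, the inhibitor of the enzyme, had values of 11.15, 11.33 and 10.82 in CD11A- and 11.75 and 11.34 in CD11A+ HSCs. The CD11A+ arrays were both above, by 0.01 at the nearest, and the difference of 0.45 ± 0.24 (standard error) was close on both days (0.42 and 0.52) and 0.24 without CD11A+ replicate 1. The lowest value of the enzyme was that of Atp5g2, a gene of its c ring (-0.26).

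The mitochondrial ribosome translates the mitochondrially encoded subunits of the chain. Of its 76 genes, 35 had a difference above 0 and 41 below, with a median of -0.02 and single values from -0.68 (Mrpl3) to 0.48 (Mrps25). On day A 62 of them were above 0 (median 0.22) and on day B 62 were below (median -0.20). The signs ran this way for 50 single genes (65.8%, against 25% of all genes), and 61 (80.3%, against 36%) were higher on day A than on day B in both subfractions.

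Glycolysis genes also had medians of opposite sign on the 2 days, while few were higher on day A in both subfractions. Of 13 measured, 6 (46.2%, against 25% of all genes) had a difference above 0 on day A and below 0 on day B, with medians of 0.27 and -0.24 and 0.05 over all arrays. Higher on day A than on day B were 4 in CD11A- HSCs, 6 in CD11A+ HSCs and 2 in both (15.4%, against 36% of all genes), and 5 were lower in both. Hk1, a hexokinase, had the highest mean difference (0.68), which was 0.29 without CD11A+ replicate 1 and 1.07 without CD11A+ replicate 2, and Ldhb, a lactate dehydrogenase subunit, the lowest. Ldhb had values of 11.44, 11.47 and 11.24 in CD11A- and 10.67 and 10.81 in CD11A+ HSCs. The CD11A+ arrays were below all others, and the difference was -0.64 ± 0.18 (standard error), with a limma adjusted p of 1.00.

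The link between the 2 pathways is pyruvate dehydrogenase, which its kinases switch off and its phosphatases switch on. Of 6 such regulators, 5 had a lower mean in CD11A+ HSCs, with a median of -0.21. They include kinases and phosphatases, which act in opposite ways, so this median gives no direction for the enzyme. The phosphatases Pdp1 and Pdp2 had differences of -0.20 and -0.31, and for Pdp2 both CD11A+ arrays lay below. The kinases Pdk2 and Pdk3 had -0.23 and -0.02, with overlapping groups. Pdk4, a kinase induced by fasting and fatty acids, had values of 5.82, 6.78 and 5.92 in CD11A- and 4.55 and 5.15 in CD11A+ HSCs. The groups did not overlap, the difference was -1.32 ± 0.36 (standard error), and it was -2.23 on day A and -0.77 on day B. Both CD11A+ values lay below the median of all probesets on their arrays (5.55 and 5.62), and no measure of background was used here, so the size of this difference is uncertain. Its limma p was 0.011 before and 1.00 after adjustment over all probesets. Pdk1, a kinase induced by hypoxia, had the highest value of the 6 (0.07). Of 10 other genes of the TCA cycle and the pyruvate dehydrogenase complex, 6 had a higher mean, with a median of 0.05 and Pcx, pyruvate carboxylase, as the highest (0.35).

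**Figure D4:**
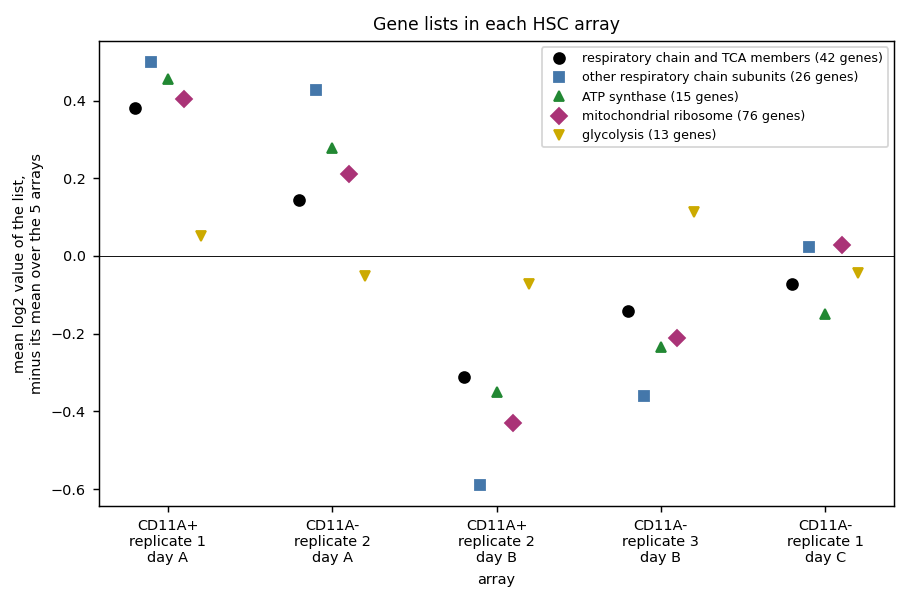
Mean log2 value of 5 gene lists (y axis, each list minus its own mean over the 5 arrays) on each array (x axis, ordered by sort day), with each point the mean over the genes of a list on 1 array. The 42 respiratory and TCA genes, the other subunits, ATP synthase and the mitochondrial ribosome lay above 0 on both arrays of day A and below 0 on both of day B, and glycolysis did not.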

How the data were processed

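RNA of CD11A- and CD11A+ HSCs was measured on 5 arrays, and so few arrays limit the precision. Per probeset the authors deposited a log2 value, which the submitters' processing notes credit to RMA. Its version and which arrays were normalized as 1 set are not given in the sources used. The supplement describes a normalization to a large public panel for its heat maps, and does not say whether it bears on the deposited table. RMA scales arrays to one another, so a shift shared by all genes cannot be seen. The values stand in 2 tables that differ in 0 values, and 40 further columns of other samples were not used.

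Of 45101 probesets, 64 controls were dropped. By the platform annotation 34945 of the rest have 1 gene, 932 several and 9160 none, and RefSeq held 34741 of the former, with 0 symbols changed. Each of 18193 genes was given by its probeset with the highest mean. Of the 42 genes, 27 have several probesets, 10 of them with differences of opposite sign, and 7 are given by probesets that can match other transcripts.

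The subfractions were compared with limma 3.58.1 (R 4.3.3), using lmFit and eBayes and neither trend nor block, adjusted by Benjamini-Hochberg over all 45037 probesets, after a check on simulated data. Lists were described by counts and medians and not tested. The members and lists were chosen with earlier results of these data known. Given in full are, per role, the 2 genes with the largest absolute difference and those whose groups did not overlap with one sign on both sort days, and for other lists the genes with the highest and lowest difference. Some genes of the lists were not analysed here. The alternatives were the other table, a block for the sort day (fixed or random) or for the replicate number, each array left out, quantile normalization, median centring, an intensity trend, only probesets with a mean of at least 6, the mean over a gene's probesets and an unpaired t-test, which the study names for another comparison.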

Additional observations from a re-analysis of the deposited data

Results flagged for a closer look

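The median difference of the 42 respiratory and TCA genes had opposite signs on the sort days, 0.26 on day A and -0.17 on day B. The same held for Sdhd (0.81 and -0.01), Uqcrq (0.61 and -0.03), Cyc1 (0.67 and -0.07) and Cox4i1 (0.01 and -0.45). Each day holds 1 array per subfraction, so these differences between the days were not tested. For Sdhd, Uqcrq, Cyc1 and Cox4i1 one of the 2 values lay within 0.07 of 0.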

How the results depend on the processing

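No alternative called any of the 42 genes after adjustment. Of the 13 genes given in full, 129 of 130 values with all arrays kept their sign, and the exception was Cox6c at -0.08 with the replicate block. The other table, the intensity trend, the t-test and the filter on dim probesets repeat each difference by construction. Their values among the 130 are thus no check on the sign. The labels' replicate numbers cross the sort days. Deviations from the group means correlated at 0.56 and 0.59 for arrays of days A and B and at 0.12 for replicate number 1, and those of number 2 mirror day A by construction. The deviations of the 2 CD11A+ arrays mirror each other, so these correlations are not separate checks. As the replicate numbers cross the sort days, they alone do not pair these arrays. With the replicate block the median difference was -0.07, and 0 genes were higher at an unadjusted p under 0.05, against 1 in the comparison as reported. That count was 0 with sort day as a fixed block (residual degrees of freedom: 1), 3 with sort day as a random block, 0 with the mean of a gene's probesets and 2 with the t-test, which had 1 lower. Both CD11A+ arrays lay above for 2 genes (4.76%, against 9.27% of all genes) with the mean of the probesets, and below for 2 (4.76%, against 9.92%) after quantile normalization, which turned the sign of Ogdh. With each array left out in turn, 0 to 4 genes were higher and 0 to 1 lower at an unadjusted p, the median was -0.40 to 0.39, 5 to 29 genes lay above (11.9% to 69%, against 12.8% to 31.1% of all genes) and 1 to 23 below (2.38% to 54.8%, against 14% to 31.6%). The differences then ran from -0.97 to 0.14 for Ndufs7, -0.69 to 0.27 for Sdhc, -0.02 to 1.11 for Uqcrq, -0.05 to 0.74 for Cyc1, -0.42 to 0.00 for Cox4i1 and -0.41 to 0.76 for Cox6c. The remaining 7 genes kept their sign, with Sdhd at 0.16 to 0.62 and Idh3a at 0.23 to 0.86. The cause was not tested.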

Other observations

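Genes that build the respiratory chain or set its amount showed no common direction. Of 22 assembly factors, 11 had a difference above 0 and 10 below, with a median of 0.00 over all arrays, 0.04 on day A and -0.23 on day B. Uqcc1, an assembly factor of complex III, had values of 6.87, 7.31 and 7.54 in CD11A- and 7.76 and 7.89 in CD11A+ HSCs, a difference of 0.58 ± 0.25 (standard error) with both CD11A+ arrays above (limma adjusted p = 1.00). Sco1, a copper chaperone of complex IV, had the lowest difference (-0.56). Of 14 regulators of mitochondrial biogenesis, 8 were above 0 and 6 below, with a median of 0.01. Ppargc1a, the coactivator PGC-1 alpha, had values of 6.48, 4.57 and 5.29 in CD11A- and 4.03 and 4.96 in CD11A+ HSCs. Its groups overlapped, and the difference of -0.95 ± 0.59 (standard error) was the lowest of the 14. It was -0.44 without CD11A- replicate 1 and rests on a dim probeset, with 4 of its 5 values below the median of all probesets on their arrays (5.55 to 5.62). Gabpb1, the beta subunit of GABP, had the highest difference (0.30). Its groups overlapped as well, the range of its CD11A- arrays was 0.51, and its differences on days A and B were 0.63 and -0.07.

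Isoforms known from muscle, testis or other tissues had a median of 0.03 over 9 genes, with 5 higher and 4 lower means. Cox7a1, the isoform of heart and skeletal muscle, had the lowest difference (-0.33) and Cox8c, a testis isoform, the highest (0.17). Every Cox7a1 value (3.93 to 4.52) lay below the median of all probesets on its array (5.55 to 5.62), so the size of its difference is uncertain.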
